A study of Mus musculus with 16 samples.

Results

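The antimicrobial and mucosal defense genes described here are 8 genes measured in 16 cultures of mouse jejunal enteroids: Reg1, Reg3a, Reg3b, Reg3g, Retnlb, Pigr, Lypd8 and Lcn2. They were taken by gene name from the deposited table of 54532 genes, and all 8 were found in it. Enteroids are epithelial cultures grown from intestinal crypts, and the study asked how loss of the motor protein MYO5B, and then Compound-1, an agonist of the lysophosphatidic acid receptor LPAR5, change gene expression in the epithelium itself. The cultures formed 4 groups of 4, and the cultures of a group came from separate mice.

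The MYO5BΔIEC group carried Vil-CreERT2 and Myo5b-flox/flox, and its Myo5b was inactivated in culture by 1 µM 4-OH-tamoxifen over 24 h before 2 days of vehicle (PBS) in differentiation medium. The Compound-1-treated group had the same genotype and induction and received 100 nM Compound-1 over those 2 days. The MYO5B(G519R) group carried Vil-CreERT2 with 1 floxed and 1 G519R allele and the same induction, and its label gives no further treatment. Controls are labelled only as control with no treatment. The study's methods derive control enteroids from adult mice with the same Cre and floxed alleles, given ethanol in place of 4-OH-tamoxifen, and elsewhere call the controls healthy littermates, so an effect of 4-OH-tamoxifen or of active Cre cannot be told apart from that of the Myo5b alleles. The mice were adults, and all 16 cultures were kept in differentiation medium. CreERT2 is driven here by the villin promoter, which acts in epithelial cells, and the enteroids hold no host microbes, immune cells or blood supply by design.

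These genes are part of the chemical barrier of the intestine. Reg1 and the Reg3 genes encode small secreted C-type lectins. REG3B and REG3G bind bacteria and keep them away from the epithelial surface, and their genes are induced in vivo by microbial signals and by IL-22 acting through STAT3. PIGR is the receptor that carries dimeric IgA through the epithelial cell to the lumen, a route that depends on vesicle traffic, and LYPD8 is a GPI-anchored protein that is shed and binds flagella. RETNLB is a bactericidal protein of goblet cells, and LCN2 withholds iron from bacteria by binding their siderophores.

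A cluster on chromosome 6 held 4 of the 8 genes (GRCm38, positions as deposited). Reg3b (ENSMUSG00000071356) was at chr6:78370657-78373466, Reg3a (ENSMUSG00000079516) at chr6:78380709-78383827 and Reg1 (ENSMUSG00000059654) at chr6:78422711-78428667, all on the plus strand. Reg3g (ENSMUSG00000030017) was on the minus strand at chr6:78466269-78468872. The cluster spanned 98.2 kb and held 2 further genes of the family. Of these, Reg3d had between 6 and 106 counts per culture and Reg2 between 0 and 7. Pigr (ENSMUSG00000026417) was at chr1:130826684-130852249, Lypd8 (ENSMUSG00000013643) at chr11:58379043-58390728, Lcn2 (ENSMUSG00000026822) at chr2:32384633-32388252 and Retnlb (ENSMUSG00000022650) at chr16:48816856-48818892. No other gene of the table overlapped any of the 8, and no 2 of the 6 genes of the Reg cluster shared a stretch of 50 bases in their annotated transcripts. The longest shared stretch was 35 bases, between Reg3b and Reg3g.

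The 250 bases before the RefSeq start sites (GRCm38.p6) are shown for the 4 Reg members, because these genes lie side by side and are read from neighbouring promoters. For Reg1 and Reg3b the RefSeq start lies inside the deposited gene span. The window is chr6:78370635-78370884 for Reg3b, chr6:78468875-78469124 for Reg3g (minus strand), chr6:78380459-78380708 for Reg3a and chr6:78425733-78425982 for Reg1. Capitals mark TATAAA or its reverse complement and the STAT-type motif TTCNNNGAA, both searched on both strands.
Reg3b: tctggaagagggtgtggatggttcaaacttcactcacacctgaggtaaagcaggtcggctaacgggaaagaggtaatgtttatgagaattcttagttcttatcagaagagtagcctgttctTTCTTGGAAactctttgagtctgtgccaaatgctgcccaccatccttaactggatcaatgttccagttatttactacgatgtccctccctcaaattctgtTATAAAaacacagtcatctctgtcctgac
Reg3g: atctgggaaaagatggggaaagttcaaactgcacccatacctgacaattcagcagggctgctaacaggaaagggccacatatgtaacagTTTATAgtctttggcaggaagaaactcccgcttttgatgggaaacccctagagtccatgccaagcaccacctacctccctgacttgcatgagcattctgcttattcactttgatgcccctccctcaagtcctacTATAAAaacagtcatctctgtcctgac
Reg3a: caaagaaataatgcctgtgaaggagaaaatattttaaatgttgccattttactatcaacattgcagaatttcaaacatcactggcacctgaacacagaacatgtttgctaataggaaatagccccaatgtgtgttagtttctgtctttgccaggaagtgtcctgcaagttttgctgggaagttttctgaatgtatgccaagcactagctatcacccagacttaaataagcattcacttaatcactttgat
Reg1: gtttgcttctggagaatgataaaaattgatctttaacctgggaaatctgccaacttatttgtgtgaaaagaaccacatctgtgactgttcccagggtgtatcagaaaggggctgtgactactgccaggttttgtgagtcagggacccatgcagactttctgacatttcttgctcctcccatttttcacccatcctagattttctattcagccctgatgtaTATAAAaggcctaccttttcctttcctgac

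The upstream sequences of Reg3b and Reg3g were the most alike, with 68.9% identity in a global alignment and a longest shared stretch of 20 bases. The other 5 pairs had between 49.3% and 54.0% identity. TATAAA was found close to the start site of Reg3b (first base at -29), Reg3g (-27) and Reg1 (-30) and not in the Reg3a window, where 12.4% of all 32851 promoters in the RefSeq table hold it within 250 bases. TTCNNNGAA, held by 7.02% of all promoters, was found in the Reg3b window (first base at -129) and in none of the other 3. Neither motif was in the windows of Pigr, Lypd8 or Lcn2, and a match in such a window is a description of its letters only.

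Libraries held between 27804968 and 40101729 counts assigned to genes, and levels are given as CPM, counts scaled to a common library total with TMM normalisation. The deposited FPKM values, which are divided by gene length, were used where genes are compared with each other. Markers of intestinal epithelium were present (summed level of 5 genes 1850 to 2976 CPM over the 16 cultures), whereas 8 immune markers together reached 5.70 CPM at most, with Adgre1, a macrophage marker, at 0 counts in every culture. Control culture 1 stood apart: its correlation with the other controls was 0.968 to 0.973 (log2(CPM + 1)), and that among controls 2 to 4 was 0.993 to 0.995. It was the lowest of the 4 controls for Reg1, Reg3a, Reg3b, Reg3g and Pigr and the highest for Lypd8 and Lcn2. Comparisons with control are also given without it, a choice made with these levels known. Leaving out the lowest control enlarges a fall by construction, so values without it describe that culture's weight and add no separate support. Myo5b, the targeted gene, had a mean of 189 ± 29.9 CPM in control (SD, n = 4). The means were 128 ± 31.0 CPM with MYO5BΔIEC, 150 ± 17.0 with MYO5B(G519R) and 111 ± 26.8 after Compound-1. Its level was past the threshold against control in treated enteroids (edgeR adjusted p = 0.0146) and not in MYO5BΔIEC (0.0503) or MYO5B(G519R) (0.109), and these counts take in all its exons, not only the floxed part.

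Per length, the order of the most abundant genes differed between control and the other groups. In control, Reg1 averaged 1039 ± 695 FPKM and Lypd8 966 ± 173 (SD, n = 4), with overlapping ranges, and Reg1 was above Lypd8 in control cultures 2 to 4. In the other groups Lypd8 had the highest mean of the 8 genes, between 644 and 979 FPKM. Over all 16 cultures Lypd8 had a mean of 829 FPKM. Reg1 and Pigr followed at 455 and 434 FPKM, and their ranges over the cultures overlapped (82.4 to 1804 and 281 to 636 FPKM). Reg3a at 111 FPKM and Reg3b at 87.4 FPKM also overlapped, and Reg3g was lower at 37.6 FPKM. Lcn2 had a mean of 0.232 FPKM and Retnlb was not detected. The Reg genes varied far more between cultures than Pigr and Lypd8: the highest FPKM over the lowest was 37.0 for Reg3a, 21.9 for Reg1, 19.2 for Reg3b and 5.25 for Reg3g, against 2.26 for Pigr and 2.24 for Lypd8.

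**Figure D1:**
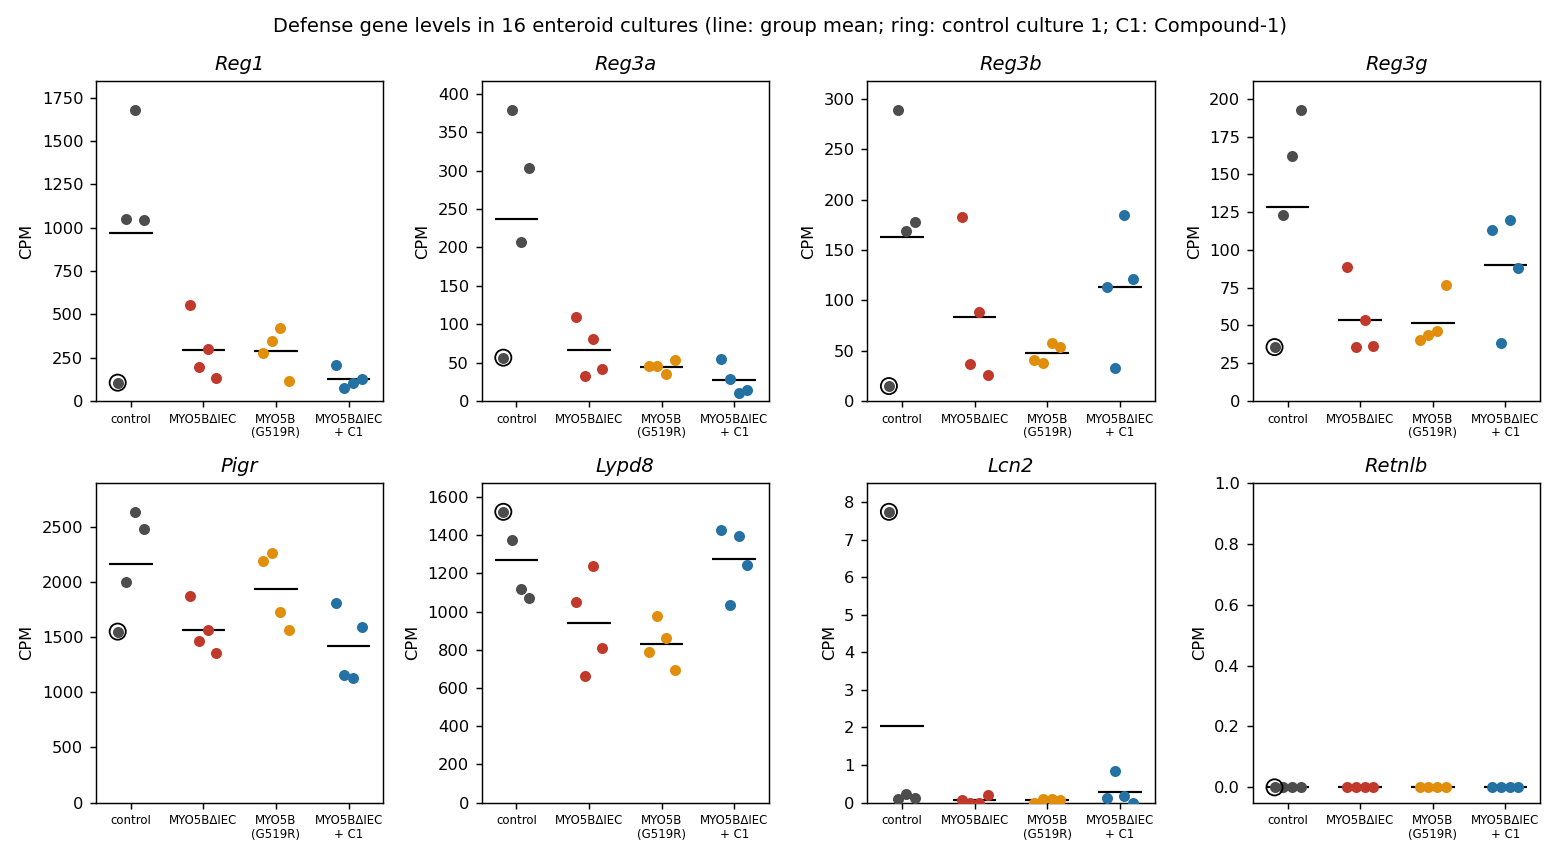
Level of each of the 8 defense genes (CPM, linear axis) in the 4 cultures of each group, with the group mean as a line and control culture 1 ringed. Controls 2 to 4 lie above every MYO5BΔIEC, MYO5B(G519R) and treated culture for Reg1, Reg3a and Reg3g, whereas control culture 1 lies among or below them, and it alone holds Lcn2 above 1 CPM.

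Reg3a, another secreted lectin of the Reg3 group, was the 1 defense gene lower past the threshold in both MYO5B-deficient groups. Control cultures 1 to 4 were at 56.3, 379, 207 and 303 CPM, and MYO5BΔIEC cultures 1 to 4 at 109, 32.1, 80.9 and 41.0 CPM. MYO5B(G519R) cultures 1 to 4 were at 44.8, 45.2, 34.8 and 53.6 CPM. All 4 MYO5B(G519R) cultures were below every control, while 2 MYO5BΔIEC cultures were above control culture 1. Reg3a fell by 1.84 on the log2 scale with MYO5BΔIEC (edgeR adjusted p = 0.0273, SE 0.53) and by 2.41 with MYO5B(G519R) (0.00588, SE 0.46).

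The MYO5B(G519R) call of Reg3a was kept with each culture left out in turn (adjusted p up to 0.0235). In MYO5BΔIEC it was kept without control culture 1 (-2.17, adjusted p = 0.000965) or MYO5BΔIEC culture 1 (-2.20, 0.0298) and lost without any of the other 6: control 2 (0.0758), control 3 (0.0514), control 4 (0.0695), or MYO5BΔIEC 2 (0.0793), 3 (0.0548) or 4 (0.0714).

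Reg1, the founding member of the family, had the highest mean FPKM of the 4 Reg members over the 16 cultures. Its control cultures 1 to 4 were at 105, 1052, 1679 and 1043 CPM. MYO5BΔIEC cultures 1 to 4 held 555, 197, 301 and 129 CPM and MYO5B(G519R) cultures 275, 344, 418 and 114 CPM. Every MYO5B-deficient culture was thus below controls 2 to 4 and above control culture 1. With all 4 controls, neither -1.71 (edgeR adjusted p = 0.0804, SE 0.67) nor -1.75 (0.0762, SE 0.66) on the log2 scale passed the threshold. Without control culture 1 they were -2.08 (adjusted p = 0.00197) and -2.09 (0.000972).

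Reg3g, whose product acts on Gram-positive bacteria, was at 35.6, 123, 162 and 193 CPM in control cultures 1 to 4. MYO5BΔIEC cultures held 88.8, 35.6, 53.9 and 36.3 CPM, and MYO5B(G519R) cultures 40.6, 43.6, 46.3 and 77.1 CPM. As for Reg1, all 8 were below controls 2 to 4. The log2 fold change passed the threshold in MYO5B(G519R) (-1.30, SE 0.43, edgeR adjusted p = 0.0475) and not in MYO5BΔIEC (-1.25, SE 0.45, 0.0631). The first call was lost without control 2 (adjusted p = 0.0849), control 3 (0.115), control 4 (0.130) or MYO5B(G519R) cultures 1 (0.117), 2 (0.116) or 3 (0.119). Without control culture 1 both groups passed (-1.59, adjusted p = 0.000266, and -1.56, 0.00157), and MYO5BΔIEC also passed without its own culture 1 (0.0424).

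Reg3b, the closest relative of Reg3g in the windows above, was at 14.7, 289, 169 and 178 CPM in control cultures 1 to 4. MYO5BΔIEC cultures spread from 26.1 to 182 CPM (182, 36.2, 88.3 and 26.1 CPM in cultures 1 to 4), and MYO5B(G519R) cultures were close together at 40.5, 37.9, 57.1 and 53.6 CPM. MYO5BΔIEC culture 1 overlapped controls 2 to 4, and no MYO5B(G519R) culture did. On the log2 scale the differences from control were -0.96 (edgeR adjusted p = 0.378, SE 0.76) and -1.78 (0.0606, SE 0.63). Without control culture 1 they were -1.34 (adjusted p = 0.0657) and -2.13 (5.29e-05), so that Reg3b then passed in MYO5B(G519R), and with all cultures the difference between the 2 groups was not past the threshold (-0.81, SE 0.48, edgeR adjusted p = 0.838).

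The abundant surface and transport genes moved less. Lypd8 was at 1523, 1376, 1120 and 1069 CPM in control cultures 1 to 4 and at 790, 979, 860 and 693 CPM in MYO5B(G519R), with no overlap between the groups. It fell by 0.61 on the log2 scale there (SE 0.17, edgeR adjusted p = 0.0241). In MYO5BΔIEC it was at 1049, 663, 1236 and 809 CPM, which overlapped control, and the difference was -0.43 (SE 0.22, 0.164). Its MYO5B(G519R) call was lost without control 2 (adjusted p = 0.0655) or MYO5B(G519R) cultures 1 (0.0719), 3 (just above 0.05) or 4 (0.0570), and when a trend of fold change on gene length was taken out (-0.45, adjusted p = 0.148).

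Pigr was at 1551, 2003, 2637 and 2478 CPM in control cultures 1 to 4 and at 1871, 1469, 1567 and 1353 CPM in MYO5BΔIEC. MYO5B(G519R) cultures held 2191, 2259, 1724 and 1562 CPM, inside the control range. The log2 differences were -0.46 (SE 0.20, edgeR adjusted p = 0.115) and -0.16 (SE 0.20, 0.593). Without control culture 1, whose level lay within the MYO5BΔIEC range, the first was -0.59 (adjusted p = 0.00991) and the second -0.26 (0.212).

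Counted together, all 6 defense genes tested had a log2 fold change below 0 in both groups, with a median of -1.11 in MYO5BΔIEC and -1.53 in MYO5B(G519R), where the median of all genes tested was -0.01 and -0.05. In MYO5BΔIEC 1 of the 6 passed the threshold, and 27.4% of all 17951 genes tested passed it (13.8% lower). In MYO5B(G519R) 3 of the 6 passed, against 26.8% of 17829 genes (13.7% lower). With control culture 1 left out they were 4 of 6 (Reg1, Reg3a, Reg3g and Pigr) and 5 of 6 (all but Pigr), and the shares of all genes rose as well, to 42.0% (20.8% lower) and 46.2% (22.1% lower). Groups without overlap were found for 0 of 6 genes in MYO5BΔIEC and for 2 of 6, Reg3a and Lypd8, in MYO5B(G519R), and 13.8% of all genes tested were lower without overlap in either comparison. Since both comparisons shared their controls, these counts are not independent of each other.

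MYO5B(G519R) and MYO5BΔIEC cultures were not told apart by any defense gene. None of the 6 tested genes passed the threshold, and 1 of 17943 genes (0.00557%) did. At an unadjusted p under 0.05 there were 772 genes and 0 defense genes, and DESeq2 called 4 genes and 0 defense genes. Groups without overlap were found for 0 defense genes, and for 0.830% (higher) and 1.02% (lower) of all genes. The differences, MYO5B(G519R) minus MYO5BΔIEC, ran from -0.81 (Reg3b) to 0.30 (Pigr, SE 0.16) on the log2 scale.

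**Figure D2:**
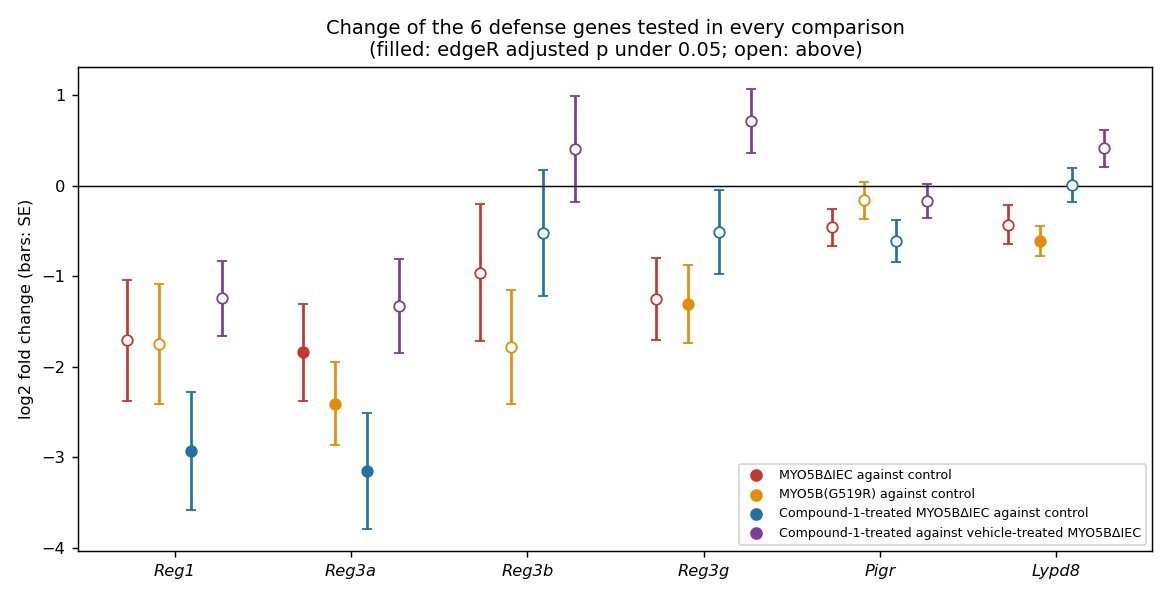
Log2 fold change (vertical axis, bars SE) of the 6 defense genes tested in every comparison, coloured by comparison and filled where the edgeR adjusted p was under 0.05. Reg3a is filled against control in all 3 groups, Reg1 only in treated enteroids, and no gene is filled in the comparison of Compound-1 with vehicle, where Reg1 and Reg3a lie below 0 and Reg3b, Reg3g and Lypd8 above.

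None of the defense genes differed past the threshold between Compound-1 and vehicle, and the lowest Reg1 and Reg3a levels of all were in treated cultures. Reg1 was at 205, 76.2, 103 and 125 CPM in treated cultures 1 to 4, so that 3 of the 4 were below the lowest vehicle culture (129 CPM). Reg3a was at 54.3, 28.8, 9.89 and 13.8 CPM, with 3 of 4 below the lowest vehicle culture (32.1 CPM). Against vehicle the log2 differences were -1.24 for Reg1 (SE 0.42, edgeR adjusted p = 0.560) and -1.33 for Reg3a (SE 0.52, 0.602), and the unadjusted p of these quasi-likelihood F tests was 0.0119 and 0.0257.

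Reg3b and Reg3g lay on the other side of 0. Reg3b was at 113, 32.4, 185 and 122 CPM in treated cultures 1 to 4, and Reg3g at 113, 38.7, 120 and 88.3 CPM. Treated cultures 1, 3 and 4 were higher than culture 2 for both genes, and both groups overlapped. The log2 differences from vehicle were 0.41 (SE 0.59, edgeR adjusted p = 0.959) and 0.71 (SE 0.36, 0.698). Lypd8 was at 1425, 1033, 1395 and 1246 CPM (0.41, SE 0.20, adjusted p = 0.697) and Pigr at 1806, 1158, 1127 and 1590 CPM (-0.17, SE 0.19, 0.935), both overlapping vehicle. Of 18037 genes tested, 0 (0%) passed the threshold in edgeR, 1355 had an unadjusted p under 0.05, Reg1 and Reg3a among them, and DESeq2 called 91 genes and 0 defense genes. No defense gene separated the groups without overlap, as 1.59% (higher) and 1.27% (lower) of all genes did. A p that misses the threshold does not show that Compound-1 left these genes as they were.

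Set against control, treated enteroids had lower Reg1 and Reg3a, with the lowest means of the 4 groups (127 ± 55.6 and 26.7 ± 20.2 CPM, SD, n = 4). Reg3a of all 4 treated cultures was below every control (13.6% of all genes tested were lower without overlap), and it fell by 3.15 on the log2 scale (edgeR adjusted p = 0.00748, SE 0.64). Reg1 fell by 2.93 (0.00996, SE 0.65), with control culture 1 inside the treated range. Both calls were kept with each culture left out in turn, with adjusted p values up to 0.0275 and 0.0347. Reg3b (-0.53, SE 0.70, adjusted p = 0.604), Reg3g (-0.51, SE 0.47, 0.439), Lypd8 (0.00, SE 0.19, 0.991) and Pigr (-0.61, SE 0.23, 0.0705) did not pass. These 2 of 7 genes tested stood beside 29.4% of 17937 genes (13.7% lower), and without control culture 1 they were 3 of 6 (Pigr added, -0.72, adjusted p = 0.0164) beside 42.1% (19.2% lower).

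**Figure D3:**
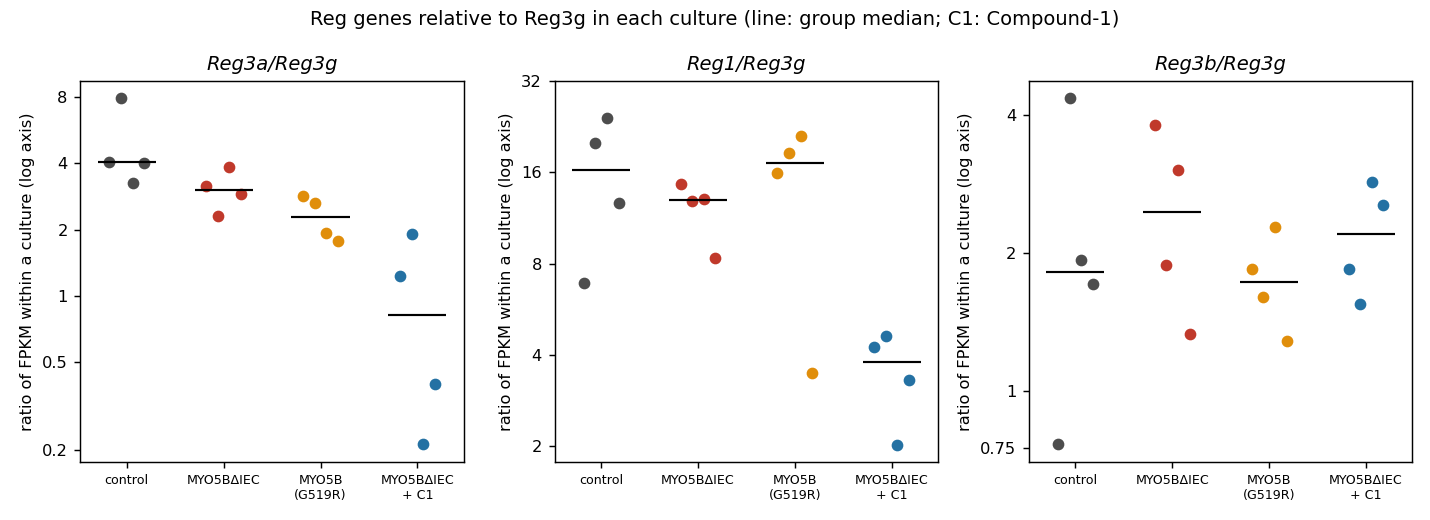
Ratio of the FPKM of Reg3a, Reg1 and Reg3b to that of Reg3g within each culture (log axis), with the group median as a line. For Reg1 to Reg3g the 4 treated cultures (2.01 to 4.61) lie below all 4 MYO5BΔIEC cultures (8.33 to 14.6), for Reg3a to Reg3g they lie at 0.212 to 1.91 against 2.31 to 3.84, and for Reg3b to Reg3g the groups overlap.

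Within a culture, where library size cancels, the balance of Reg3a and Reg3g was shifted most in treated enteroids. Per length, control cultures held 3.28 to 7.90 times as much Reg3a as Reg3g. This ratio was 2.31 to 3.84 with MYO5BΔIEC, 1.78 to 2.83 with MYO5B(G519R) and 0.212 to 1.91 after Compound-1. Control culture 1, low in every Reg gene, had a ratio of 4.05, among the other controls. For Reg1 to Reg3g, vehicle-treated MYO5BΔIEC cultures lay at 8.33 to 14.6 and Compound-1-treated ones at 2.01 to 4.61. Control (6.90 to 24.2) overlapped vehicle in this ratio, and MYO5B(G519R) (3.47 to 21.1) overlapped both vehicle- and Compound-1-treated cultures. Reg1 to Reg3a overlapped between all 4 groups, at 1.71 to 7.39 in control and 2.41 to 9.50 after Compound-1. For Reg3b to Reg3g, vehicle-treated MYO5BΔIEC (1.33 to 3.80) and Compound-1-treated cultures (1.55 to 2.86) overlapped. These ratios were chosen after the levels were seen and are given as a description without a test.

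Over the 16 cultures, Reg3b and Reg3g were the members most alike in pattern, and Reg1, Reg3a and Pigr were like each other. The highest correlation between 2 members (Pearson r of log2(CPM + 1), n = 16 cultures of 4 groups) was 0.89 for Reg3b with Reg3g, followed by 0.84 for Reg1 with Pigr, 0.82 for Reg1 with Reg3a and 0.71 for Reg3a with Pigr. Reg1 with Reg3b was at 0.60 and Reg3a with Reg3b at 0.41. Lypd8 followed none of them, with r up to 0.43. Among 13545 genes with a mean of at least 1 CPM, the genes most like each member included Hadh (r = 0.96) and Smim24 (0.96) for Reg3a, Rdh7 (0.95) and Gm14963 (0.94) for Reg1, Gstk1 (0.93) for Reg3b, Rnf115 (0.91) and Stk38l (0.90) for Reg3g, Tdp2 (0.88) and Rdh11 (0.88) for Pigr, and Ms4a12 (0.83) and Pkn2 (0.82) for Lypd8. These values describe likeness over cultures that share their groups, and no p is given.

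Lcn2 and Retnlb were at or near the limit of detection. Lcn2 had 247 counts in control culture 1 (7.74 CPM) and 3, 7 and 3 counts in the other controls. MYO5BΔIEC cultures held 2, 0, 0 and 7 counts, MYO5B(G519R) cultures 0, 3, 4 and 2, and treated cultures 4, 27, 7 and 0. A single culture thus held most of it, and it passed the count filter only in treated enteroids against control (-2.84, SE 1.45, edgeR adjusted p = 0.164). With no filter it was called lower in MYO5BΔIEC (adjusted p = 0.0129) and MYO5B(G519R) (0.0217), as with all 4 groups in 1 fit (0.0197 and 0.0227), with control culture 1 in each of these fits. Retnlb had 0 counts in all 16 cultures, so that levels under 0.0736 to 0.111 CPM, depending on the library, would be missed (3 counts, counting error only).

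Other antimicrobial and barrier genes did not move as a block in MYO5BΔIEC or MYO5B(G519R). Of 30 on the list, 24 were tested in MYO5BΔIEC against control, and 4 rose and 4 fell, beside 13.5% higher and 13.8% lower of all genes, with a median log2 fold change of 0.00. Those that rose were the iron-binding protein gene Ltf (3.38, SE 0.52, edgeR adjusted p = 0.00214), the dual oxidase gene Duox2 (2.24, SE 0.42), its maturation factor Duoxa2 (1.43, SE 0.33) and the alkaline phosphatase gene Alpi (1.23, SE 0.30), the last named after its values were seen. Those that fell were Reg3d (-1.35, SE 0.43), the lectin gene Itln1 (-0.83, SE 0.24), the lysozyme gene Lyz1 (-0.75, SE 0.24) and the family member Reg4 (-0.73, SE 0.23). In MYO5B(G519R), 4 rose and 4 fell as well (13.1% and 13.7% of all genes), among them Ltf (2.37), Duox2 (2.12), Duoxa2 (1.49), Reg3d (-1.45), Reg4 (-1.32) and Itln1 (-0.96). Reg3d, between Reg3b and Reg3a in the cluster, therefore moved in the same direction as Reg3a, at 2.20 ± 1.07 CPM in control against 0.859 ± 0.299 with MYO5BΔIEC and 0.800 ± 0.171 with MYO5B(G519R). With control culture 1 left out the counts were 7 higher and 7 lower in MYO5BΔIEC (21.2% and 20.8% of all genes) and 6 and 8 in MYO5B(G519R) (24.0% and 22.1%). In treated enteroids against control, 8 of 24 rose and 2 fell (15.7% and 13.7% of all genes), with a median of 0.65. Against vehicle 0 of 23 passed, while 17 lay above 0 and 6 below (median 0.39). Of these 23, 4 were higher and 0 lower without overlap, beside 1.59% and 1.27% of all genes.

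In the lists of receptors, sensors and signalling genes, every call against control was higher, where every call among the defense genes was lower. Over all genes tested, longer genes tended to have higher log2 fold changes against control (Spearman correlations of 0.276 to 0.294). The Reg members have gene lengths from 825 (Reg3a) to 2114 bases (Reg3g). The part of gene length in the contrast between these lists and the defense genes was not tested. Of 13 cytokine receptor genes tested of 15, 5 rose and 0 fell in MYO5BΔIEC (median 0.24, beside 13.5% of all genes higher). These included the IL-22 receptor gene Il22ra1, from 13.1 ± 1.99 to 22.0 ± 2.64 CPM (0.76, SE 0.16, edgeR adjusted p = 0.00752), Tnfrsf1a (0.89, SE 0.14) and Il4ra (0.82, SE 0.13). In MYO5B(G519R) 4 rose and 0 fell (13.1% of all genes higher), with Tnfrsf1a at 0.71, Il4ra at 0.68 and the IL-17 receptor gene Il17ra at 0.60. The list median was -0.05 there, beside -0.05 for all genes tested, and 7 of the 13 genes were below 0. Il22ra1 was at 17.4 ± 4.57 CPM there and did not pass.

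Stat3, which carries the IL-22 signal, rose from 40.1 ± 8.52 CPM in control to 82.2 ± 12.5 in MYO5BΔIEC (1.05, SE 0.18, edgeR adjusted p = 0.00294) and was between 68.8 and 89.6 in MYO5B(G519R), where it rose by 0.90 (SE 0.16). With Nfkb2 (1.19 and 1.04), Rela (0.79 and 0.80) and the feedback gene Tnfaip3 (1.00 and 0.74), it was among the STAT and NF-kB genes that rose. They numbered 5 of 14 in MYO5BΔIEC and 4 of 14 in MYO5B(G519R), beside 13.5% and 13.1% of all genes, and 0 fell. Microbial sensors and adaptors gave 4 of 13 higher and 0 lower in both groups, beside 13.5% and 13.1% of all genes higher. They were led by the endotoxin receptor gene Tlr4 (2.49 and 2.23, from 0.240 ± 0.142 CPM in control), Nod1 (0.81 and 0.90) and Irak4 (0.67 and 0.51). Leaving out control culture 1 gave more higher calls in these lists and still 0 lower. There were 7, 8 and 7 for receptors, STAT and NF-kB genes and sensors in MYO5BΔIEC (21.2% of all genes higher) and 5, 7 and 6 in MYO5B(G519R) (24.0%). Treated enteroids gave 5, 7 and 5 higher calls against control (15.7% of all genes), and 7 in each list without that culture (22.9%). In Compound-1 against vehicle, 0 genes of any of these lists passed.

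**Figure D4:**
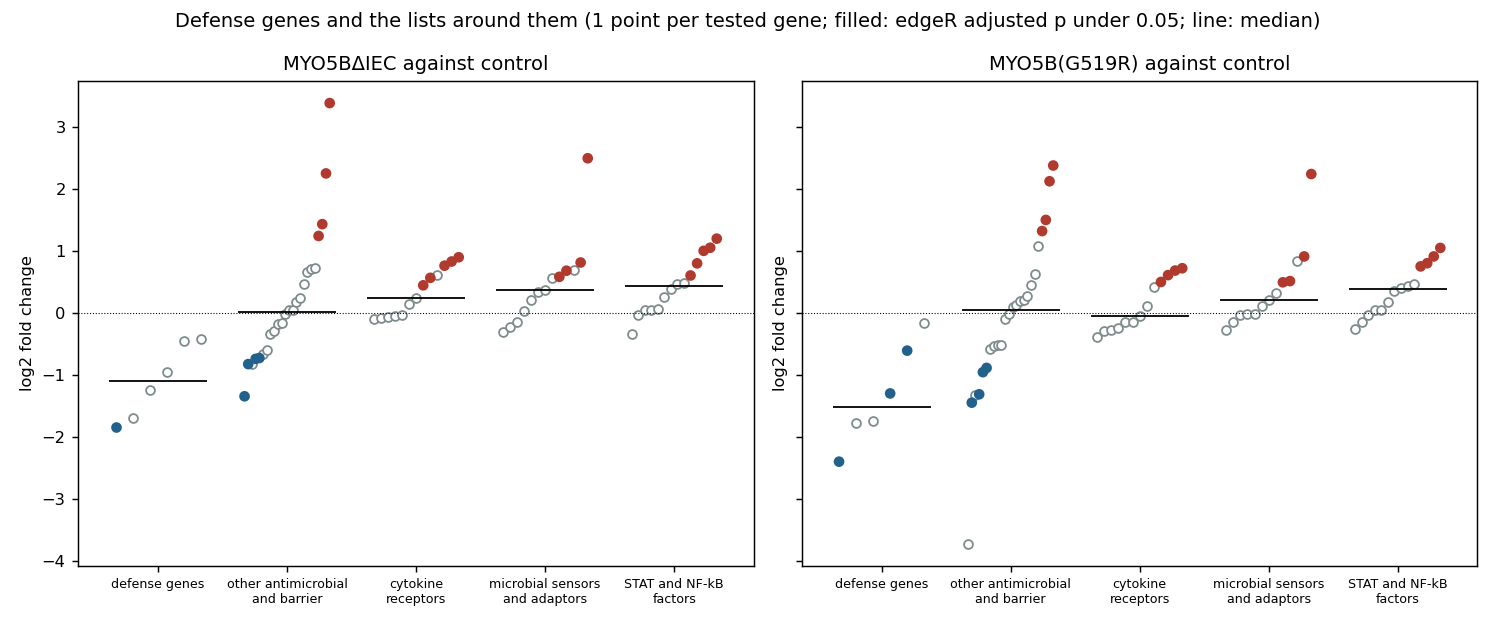
Log2 fold change against control of each tested gene of 5 lists in MYO5BΔIEC and MYO5B(G519R), filled where the edgeR adjusted p was under 0.05 (red higher, blue lower) and open otherwise, with the list median as a line. All 6 defense genes lie below 0, while the filled genes of the receptor, sensor and transcription factor lists all lie above it.

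The cell type markers moved with the defense genes in part. Paneth cells are among the sources of REG3 proteins in the small intestine, and of 8 Paneth markers 3 fell in both groups (Mptx2, -1.76 and -1.37, Itln1 and Lyz1, the last 2 also on the list of antimicrobial genes), beside 13.8% and 13.7% of all genes lower. Without control culture 1, 6 and 8 fell, beside 20.8% and 22.1%. The summed level of the Paneth list ran from 3437 to 8188 CPM in control, with a median of 7350. The ranges were 3275 to 4874 CPM for MYO5BΔIEC (median 4150), 3412 to 4355 for MYO5B(G519R) (3502) and 3422 to 4989 after Compound-1 (3989). The summed enterocyte markers (7 genes) had medians of 11948, 8017, 5903 and 4942 CPM in the same order, and control culture 1 was the lowest of all 16 cultures at 2616 CPM. Of these 7 genes, 1 rose (Alpi) and 0 fell in MYO5BΔIEC, and 0 rose and 1 fell (Sis, -1.10, edgeR adjusted p = 0.0464) in MYO5B(G519R). Without control culture 1, 1 rose and 2 fell in MYO5BΔIEC, and 0 rose and 4 fell in MYO5B(G519R), beside 20.8% and 22.1% of all genes lower. The summed goblet markers (7 genes) had medians of 2014, 2442, 2356 and 3512 CPM, with 2 higher and 2 lower calls in MYO5BΔIEC and 2 and 3 in MYO5B(G519R). Treated cultures 1 to 4 were far apart in this sum, at 2565, 2318, 6300 and 4459 CPM, against 2172 to 2602 CPM in MYO5BΔIEC. Of 4 stem cell markers 1, Olfm4, fell in both groups (-2.26 and -1.63), 2 and 1 of 4 proliferation markers fell, 2 and 1 of 5 enteroendocrine markers rose, and of 5 tuft markers, 4 of them tested, 0 passed (edgeR). Of 3 immune markers tested 0 passed, and of 2 fibroblast and endothelial markers 0 and 1. In these bulk libraries fewer cells of a type and less RNA per cell cannot be told apart, and the part of these markers in the levels of the defense genes was not tested. Mitochondrially encoded genes took 9.07% to 10.4% of counts in controls 2 to 4, 6.41% in control culture 1 and 3.79% to 6.63% in the other 12 cultures. Leaving them out of the library sizes changed no call of a defense gene.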

How the data were processed

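Poly-A RNA of 16 enteroid cultures was sequenced in paired ends. Per the study's methods and the submitters' processing notes, the authors aligned reads to GRCm38 (mm10) with STAR 2.5 (the notes also list TopHat), counted reads per gene with HTSeq 0.6.1 and tested with DESeq2. The deposited files hold raw counts per gene and FPKM computed by the authors from them. Strand and multi-mapping settings are not given in the sources used here. No column of the authors' own comparisons was used.

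Counts were tested with edgeR 4.0.16 (R 4.3.3) by the quasi-likelihood F test with TMM normalisation, keeping a gene where 2 or more of the compared cultures reached 10 counts. Only the 2 groups of a comparison entered its fit, and Benjamini-Hochberg adjusted p-values over all genes tested were called under 0.05. Alternatives were DESeq2 1.42.0, DESeq2 size factors, no filter, filterByExpr, all 4 groups in 1 fit, a replicate block, a gene length offset (loess, span 0.5), library sizes without mitochondrial genes, limma 3.58.1 on log2(FPKM + 1) and log2(FPKM + 0.1), which are log2 values made here from the deposited FPKM, and each culture left out. Counts in the gene lists without control culture 1 were added after seeing the data. The floor for 0 counts was 3 counts. Scripts were tested on simulated data. Figures and summaries used Python 3.11.15.

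The members and the lists (other antimicrobial genes, cytokine receptors, microbial sensors, STAT and NF-kB genes, and markers of epithelium, enterocyte, goblet, Paneth, tuft, enteroendocrine, stem, proliferating, immune, fibroblast and endothelial cells) were chosen with earlier results of these data known. Of each list, up to 3 genes that rose most and 3 that fell most among those called are named, and some values are not reported here. The labels and the study's methods name nothing beyond the mouse of origin that separates the cultures of a group. The p-values measure the spread between cultures, whatever its source. Promoter sequences came from RefSeq GRCm38.p6, and 7 of the 8 genes matched an entry.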

Additional observations from a re-analysis of the deposited data

Results flagged for a closer look

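Among 172 groups of 4 cultures, 13 held a culture far from the other 3 by Dixon's test at the 95% level. The groups of Retnlb, at 0 counts throughout, could not be flagged. Chance gives about 1 in 20 groups where genes are not picked by their values. Here 35 of the genes were list genes named because they were called, so that rate is only a guide. Of the defense genes, Reg3g was high in MYO5B(G519R) culture 4 (77.1 CPM, others 40.6 to 46.3) and Lcn2 in control culture 1 (7.74 CPM, others 0.0997 to 0.224).

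Control culture 1 was also high for Fcgbp (889 CPM, others 277 to 341), Nfkb2 (31.7, others 18.5 to 19.3) and Rela (56.9, others 28.6 to 29.4) and low for Itln1 (936, others 1924 to 2026). Chgb was low in control culture 2 (231 CPM, others 316 to 328). Duox2 was low in MYO5BΔIEC culture 4 (19.1 CPM, others 48.4 to 52.5), and Tff3 high in MYO5BΔIEC culture 2 (509.9 CPM, others 408 to 425). In MYO5B(G519R) culture 3, Krt20 (447 CPM, others 293 to 316), Lyz1 (1635, others 1039 to 1139) and Stat3 (89.6, others 68.8 to 71.8) were high. Krt20 was low in treated culture 4 (318 CPM, others 434 to 455).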

How the results depend on the processing

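Counts of defense genes called moved with the filter, the groups in the fit and the cultures left out. Against control, 1 was called in MYO5BΔIEC, 2 with DESeq2, 4 with no filter or all 4 groups in 1 fit, 0 with either limma pseudocount, and 0 to 4 with 1 culture left out. In MYO5B(G519R) 3 were called, 6 with no filter, 5 with all 4 groups, 1 with either limma pseudocount, and 1 to 5 with 1 culture left out. Lcn2, which did not pass the filter in these 2 comparisons, is among those called with no filter and with all 4 groups. In treated enteroids 2 were called, and 2 to 3 with 1 culture left out. Compound-1 against vehicle, and MYO5B(G519R) against MYO5BΔIEC, gave 0 under every alternative run.

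The labels do not say that replicate numbers pair cultures, and in no comparison was every correlation of same-numbered deviations over 0.1. They ran from -0.21 to 0.24 in the 4 comparisons with control or vehicle, where 0 to 2 of 8 cultures correlated best with their own number, and from 0.07 to 0.57 in MYO5B(G519R) against MYO5BΔIEC, where 5 of 8 did. With the replicate block, alone or with the length offset, the count was 0 in MYO5BΔIEC and 1 in treated enteroids, where Reg1 had an adjusted p of 0.0515 and 0.0580.

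Signs turned for 4 differences, none past the threshold. Reg3b in treated enteroids against control was 0.12 in place of -0.53 with block and length offset, and Lypd8 was -0.00126 with filterByExpr and -0.0735 to 0.124 with 1 culture left out. In MYO5B(G519R) against MYO5BΔIEC, Reg1 was 0.0285 with the block, 0.0228 and 0.0229 with limma and -0.28 to 0.47 with 1 culture left out. Reg3g was 0.0064 with the block, 0.00436 and 0.00642 with limma and -0.30 to 0.31 with 1 culture left out. The cause was not tested. With 4 cultures a group, the spread between cultures rather than depth limits the Reg genes, and the low counts of Lcn2 limit any comparison of it.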
